A study of Mus musculus with 9 samples.

Results

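The mouse Hox genes were followed through RNA sequencing of the cardiac outflow tract, the arterial pole of the embryonic heart. Every gene symbol made of Hox, a cluster letter from a to d and a paralogue number was taken, which gave 39 members of the 48397 symbols counted. The choice used names alone and no measured value. By cluster there were 11 Hoxa, 10 Hoxb, 9 Hoxc and 9 Hoxd genes. All 39 matched the GENCODE M21 annotation of mm10. The Hoxa cluster spans chr6:52155590-52260880, Hoxb chr11:96194316-96368256, Hoxc chr15:102921103-103036852 and Hoxd chr2:74668310-74765142.

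The samples were outflow tracts dissected at embryonic day 12.5 from C57BL/6J mice. Wild-type tissue (Nkx2-5+/+, 4 libraries) was compared with tissue of littermates homozygous for loss of an enhancer of Nkx2-5 (Nkx2-5delta-enh/delta-enh, 5 libraries, called deletion below). Nkx2-5 encodes a cardiac homeodomain transcription factor, and the enhancer is one active in the anterior second heart field. The loss is present in the germ line of these embryos, so it is not limited to 1 cell type. The labels do not say whether a library is 1 embryo or a pool, so a p-value here covers the spread between libraries, part of which may be technical. The libraries carry 1 of 3 numbers in the names they were deposited under, called A, B and C here. Number A is on wild types 1 and 2 and deletions 1 and 2, number B on wild types 3 and 4 and deletions 3 and 4, and number C on deletion 5. The numbers are taken to be litters, which is an assumption, and C has the digits of B in another order and may be B mistyped.

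Hox genes encode homeodomain transcription factors that give cells their address along the head-to-tail axis. Within a cluster the genes with low paralogue numbers are used early and reach far forward, and those with high numbers are used later and further back. Retinoic acid switches on the front end of the clusters, Polycomb complexes keep the rest silent, and Pbx, Meis and Pknox proteins bind DNA together with Hox proteins. Near the heart, Hoxb1 is known from second heart field progenitors, Hoxa2 and Hoxa3 from neural crest and pharyngeal arches, and paralogues 4 and 5 from the vagal level of the neck. Paralogues 6 to 9 are typical of the trunk, and 10 to 13 of the lumbar, tail and limb ends of the body.

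The stretch before the start of transcription is shown for a few members that the results turn on. Hoxa2 and Hoxb4 were high in most libraries, Hoxd8 and Hoxa5 were lower in the libraries of number B than in those of number A, and Hoxb8 was counted in 1 library alone. Each run is the 250 bases before the start, from RefSeq on GRCm38.p6, written 5′ to 3′ on the strand of the gene, and none holds an annotated exon. Capitals mark a match, on either strand, to TGATNNAT (bound by Pbx with Hox), TGACAG (bound by Meis or Pknox) or AGGTCA (a nuclear receptor half-site). The coordinates are chr6:52164832-52165081 on the minus strand for Hoxa2 and chr6:52204588-52204837 on the minus strand for Hoxa5. On the plus strand they are chr11:96318017-96318266 for Hoxb4, chr11:96281655-96281904 for Hoxb8 and chr2:74704365-74704614 for Hoxd8.
Hoxa2: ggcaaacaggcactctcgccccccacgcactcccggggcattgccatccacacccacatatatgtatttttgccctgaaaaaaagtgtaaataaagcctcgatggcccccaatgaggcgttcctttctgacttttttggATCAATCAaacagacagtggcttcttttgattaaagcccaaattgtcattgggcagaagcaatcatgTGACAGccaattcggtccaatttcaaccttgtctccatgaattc
Hoxb4: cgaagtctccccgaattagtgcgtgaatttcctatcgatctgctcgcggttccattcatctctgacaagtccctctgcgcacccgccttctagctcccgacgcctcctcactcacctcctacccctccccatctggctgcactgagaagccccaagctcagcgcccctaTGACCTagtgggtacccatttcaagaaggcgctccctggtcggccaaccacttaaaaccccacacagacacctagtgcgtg
Hoxa5: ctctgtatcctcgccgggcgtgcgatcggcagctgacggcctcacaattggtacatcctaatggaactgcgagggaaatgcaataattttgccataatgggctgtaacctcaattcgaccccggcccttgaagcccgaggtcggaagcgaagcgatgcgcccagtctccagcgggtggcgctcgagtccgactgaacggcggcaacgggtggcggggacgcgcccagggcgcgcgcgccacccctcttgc
Hoxd8: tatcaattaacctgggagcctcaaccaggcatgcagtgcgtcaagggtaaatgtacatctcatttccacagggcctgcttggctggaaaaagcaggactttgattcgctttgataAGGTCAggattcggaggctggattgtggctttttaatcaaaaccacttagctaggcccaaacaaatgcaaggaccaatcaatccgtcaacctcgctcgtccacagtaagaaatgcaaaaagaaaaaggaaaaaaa
Hoxb8: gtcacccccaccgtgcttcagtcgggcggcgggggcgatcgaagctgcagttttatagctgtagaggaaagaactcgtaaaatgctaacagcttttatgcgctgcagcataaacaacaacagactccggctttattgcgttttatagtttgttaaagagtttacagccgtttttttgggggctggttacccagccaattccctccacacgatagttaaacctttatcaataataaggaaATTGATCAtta

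Windows could be matched for 22 of the 39 members, as 24 windows. TGATNNAT was found in 4 of the 24 (16.7%), those of Hoxa2, Hoxb1, Hoxb8 and 1 of the 2 Hoxd11 windows, against 7.68% of all 32851 promoter windows. AGGTCA was found in 6 of the 24, against 14.02% of all, and TGACAG in 2 (8.33%), against 15.9% of all. The DR5 type of retinoic acid response element, a direct repeat of the half-site, was in none of the 24 and in 3 of all windows. The Hoxa5 window held 28 CpG and no searched motif, and the Hoxd8 window 6 CpG. The median was 12.5 CpG over the Hox windows and 6.0 over all windows. A match is a description of the letters and not a bound site.

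Reads assigned to genes ran from 27707435 to 49094225 per library, and 20606 to 22093 symbols had a count. Levels are given in CPM, which are counts relative to the library total after TMM scaling. A count of 0 allows up to 3 counts, which is 0.0604 to 0.107 CPM, and these limits cover counting error only, since reads made by PCR are not independent molecules. Nkx2-5 itself had 17.5 ± 4.62 CPM (SD) in the 5 deletion libraries, against 36.3 ± 11.9 CPM (SD) in the 4 wild types. Its log2 fold change was -1.05 (SE 0.26, adjusted p = 0.896 by edgeR and 0.0580 by DESeq2). All 7 heart muscle markers and all 7 smooth muscle markers were counted, with summed levels of 6771 to 16483 CPM and 1577 to 2890 CPM.

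Deletion 2 stood apart in genes other than the Hox members. The 20 markers of neurons and Schwann cells summed to 3621 CPM there and to 85.0 to 148 CPM in the other 8 libraries, and 17 of the 20 were highest in deletion 2. Prph, a neurofilament protein of peripheral neurons, reached 331 CPM and Pou4f1, a sensory neuron factor, 25.9 CPM. The 10 markers of neural tube progenitors summed to 3.93 CPM in deletion 2 and to 0.0993 to 1.17 CPM in the other 8 libraries. Of the 10, 1 was highest in deletion 2, and Pax7, Olig2, Dbx1 and Msx3 were at 0 in every library. Both comparisons below were also run without this library. In these bulk samples more cells of a type and more RNA per cell cannot be told apart.

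The outflow tract held a front-end Hox profile. Of the 15 members with paralogue numbers 1 to 5, 11 passed the filter on low counts (about 10 counts in at least 4 libraries), whereas of the 24 with higher numbers Hoxd8 alone did. In all, 12 members had a count in every library and 8 had none in any library (Hoxb13, Hoxc9, Hoxc10, Hoxc11, Hoxc12, Hoxd10, Hoxd11 and Hoxd12). The 12 members with numbers 10 to 13 never exceeded 15 counts, reached by Hoxa10 in wild type 1, and 7 of them were at 0 throughout. Hoxc13 had 3 to 12 counts in 5 libraries, and Hoxa11, Hoxa13 and Hoxd13 had 4 counts in 1 library each.

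**Figure D1:**
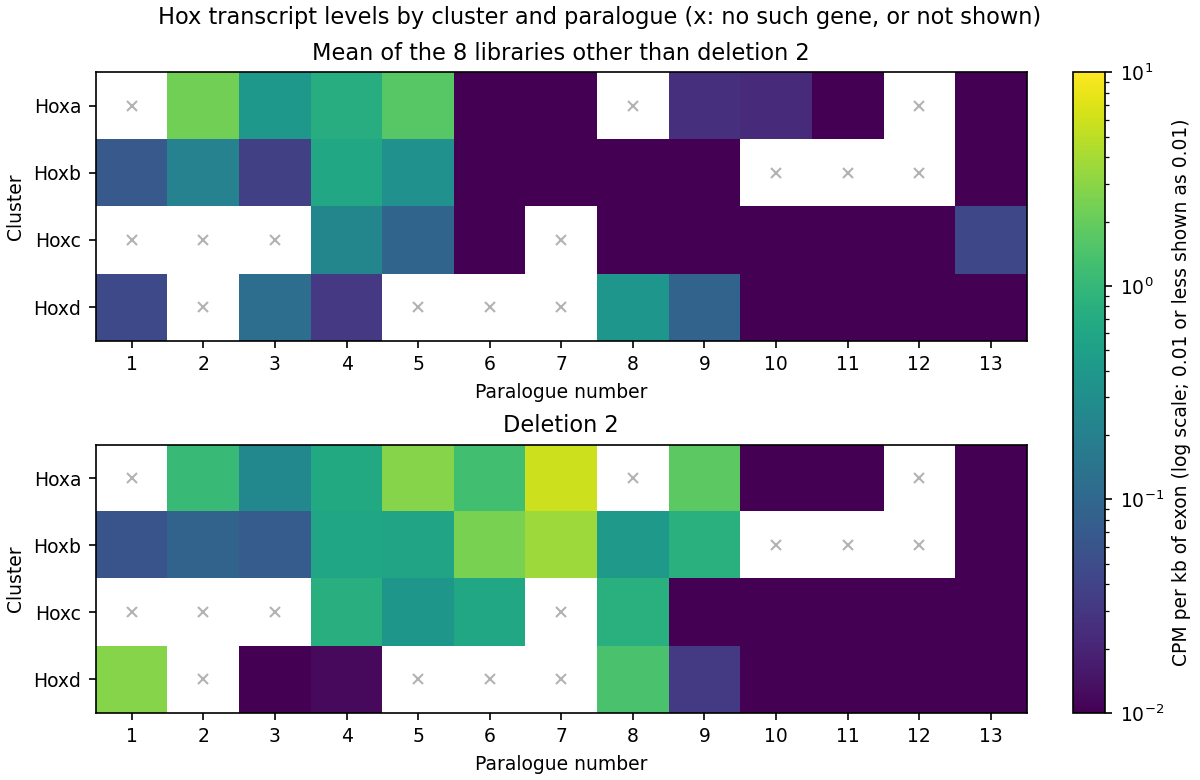
Mean level of the Hox genes shown, as CPM per kb of exon (colour, log scale) by cluster (rows) and paralogue number (columns), for the mean of 8 libraries (upper panel) and for deletion 2 (lower panel). In the upper panel the colour is strong at Hoxa2 (2.32 CPM per kb) and fades beyond paralogue 5 except at Hoxd8 and Hoxd9, whereas in deletion 2 paralogues 6 to 9 are filled in Hoxa and Hoxb and in part of Hoxc and Hoxd (Hoxc9 is at 0 and Hoxd9 low).

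Levels of different genes were compared as CPM per kb of annotated exon. Hoxa2 stood at 2.32 ± 1.06 CPM per kb (SD, n = 8 libraries without deletion 2) and Hoxa5 at 1.68 ± 1.11. Hoxa2 and Hoxa5 differed by less than the SD of either. Next came Hoxa4 with 0.736 ± 0.624, Hoxb4 with 0.614 ± 0.269, Hoxa3 with 0.399 ± 0.185, Hoxd8 with 0.380 ± 0.351 and Hoxb5 with 0.327 ± 0.328 CPM per kb. Neighbours among these 5 differed by less than the SD of either, except that the gap between Hoxb4 and Hoxa3 exceeded the SD of Hoxa3. Hoxc4 (0.237 ± 0.0866) led its cluster, and Hoxb1 stood at 0.0696 ± 0.0688 CPM per kb.

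By cluster, Hoxa genes made up 80.6% to 90.2% of the summed Hox level per kb in those 8 libraries. Hoxb genes held 4.13% to 10.1%, Hoxd genes 2.48% to 6.62% and Hoxc genes 1.38% to 3.97%. In deletion 2 the shares were 50.3% for Hoxa, 27.9% for Hoxb, 13.6% for Hoxd and 8.22% for Hoxc. Some exons are shared with a neighbouring gene, among them 62.8% of the exon bases of Hoxd3, 52.9% of Hoxb3, 52.3% of Hoxd4, 27.3% of Hoxb2 and 27.1% of Hoxa3. How reads in shared exons were assigned is not given in the sources used here, so the levels of these members are uncertain. With the longest coding transcript as length, Hoxa3 stood at 0.887 and Hoxb2 at 0.430 CPM per kb over 9 libraries (0.382 and 0.200 with all exon bases).

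Deletion 2 carried a block of trunk-level Hox transcripts, 8 of which had 3 or fewer counts in each other library. Hoxa9 and Hoxd8, also highest there, were counted in other libraries too. Of the 12 members with numbers 6 to 9, 10 were highest in this library, and 3 of the 15 with numbers 1 to 5 were (Hoxc4, Hoxc5 and Hoxd1). Deletion 2 was above every other library for 17.0% of the 28085 genes with any count. Hoxa6, Hoxa7, Hoxb6, Hoxb7, Hoxb8, Hoxb9, Hoxc6 and Hoxc8 had 30 or more counts there and 3 or fewer in each other library, a pattern met by 0.174% of genes (49 of 28085). The other 8 libraries each had 0 to 9 genes with this pattern of their own. These descriptions, with the members named in them, were chosen after the values were seen, apart from Hoxc4 and Hoxc5. Hoxb7 and Hoxd1 were named as among the 2 highest of their clusters per kb over all libraries. They met that rule through deletion 2 itself, so their values there are not independent of the choice.

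Hoxb7, the highest Hoxb gene per kb after Hoxb4 when deletion 2 is included, had 163 counts (5.68 CPM) in deletion 2, 1 count in deletion 3 and none elsewhere. Hoxa7 had 486 counts (16.9 CPM) in deletion 2 and 1 count in wild type 1. Hoxb6 had 139 counts and Hoxb8 32 counts in deletion 2, and both were at 0 in the other 8 libraries. Per kb, Hoxa7 (5.88 CPM per kb) and Hoxb7 (3.68) were the leading Hox genes of deletion 2. Hoxa9 had 279 counts there (9.71 CPM) and 7 to 19 counts in 4 others, and Hoxc8 65, Hoxb9 60, Hoxc6 44 and Hoxa6 31 counts. The Hoxb8 stretch printed above has its Pbx-Hox match close to the start of the gene, and the Hoxa9 window held none of the searched motifs.

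Hoxd1, known for its part in the wiring of pain-sensing neurons in mice, had 151 counts (5.26 CPM) in deletion 2. It had 17 counts (0.605 CPM) in deletion 4, 2 in deletion 5, 1 in wild type 1 and 0 in the other 5 libraries. At the front end, Hoxd3 was lowest in deletion 2, with 1 count against 9 to 29. Paralogues 6 to 9 took 60.8% of the summed Hox level per kb in deletion 2 and 0.50% to 6.49% in the other libraries. The marker values above moved with this block in the same library, and their part in it was not tested. With 1 library there is no replicate check of the difference.

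**Figure D2:**
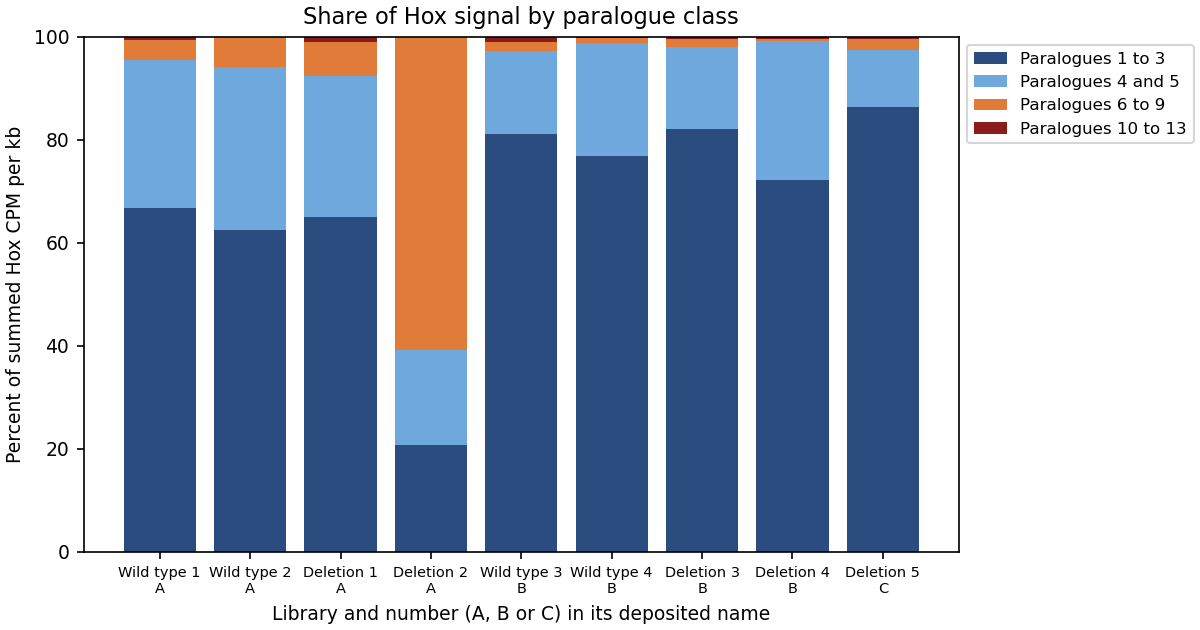
Stacked bars of the percent of summed Hox CPM per kb held by paralogues 1 to 3, 4 and 5, 6 to 9 and 10 to 13 in each of the 9 libraries, with the number of each library under its name. Deletion 2 is the bar in which paralogues 6 to 9 take 60.8%, and the bars of number B have a taller part for paralogues 1 to 3 (72.2% to 82.1%) than the other bars of number A (62.5% to 66.8%).

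The first comparison asked whether loss of the enhancer moved Hox transcripts. No member passed the test, and the direction of the members as a group changed with the libraries used. edgeR (quasi-likelihood test, Benjamini-Hochberg adjusted p of 0.05) called 0 of 12 members and 0 of 16522 genes, 0% of those tested. At an unadjusted p of 0.05 it took 870 genes (5.27%) and 0 members. DESeq2 called 38 genes (0.135%), none of them Hox. At an unadjusted p of 0.05 DESeq2 took 4 of the 31 members with any count (Hoxa3, Hoxa4, Hoxb2 and Hoxd1), beside 4.66% of genes. Both totals include genes for which it gave no p-value. Among the members these were Hoxa6, Hoxa7, Hoxa9, Hoxb6, Hoxb7, Hoxb8, Hoxb9, Hoxc6 and Hoxc8. Hoxd1 was by far the highest in deletion 2. No member had groups that did not overlap, against 1.80% of genes. Of the 12 members, 8 had a log2 fold change below 0, with a median of -0.34, beside a median of 0.00 and 49.4% below 0 over all genes. Without wild type 1 it was 6 of 12 with a median of 0.00, and within number B 5 of 12 with a median of 0.15.

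Hoxa2, the selector gene of the second pharyngeal arch, measured 7.11, 5.21, 1.57 and 3.10 CPM in wild type and 5.73, 1.92, 4.67, 2.31 and 3.21 CPM in the deletion. The genotypes overlapped over nearly their whole range, and the log2 fold change was -0.25 (SE 0.46).

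The smallest p-values of the members belonged to Hoxa3, Hoxb2 and Hoxa4. Hoxa3, needed for the thymus, parathyroid and carotid arteries, stood at 4.92, 2.28, 2.38 and 2.25 CPM in wild type. In the deletion it stood at 1.65, 1.497, 1.64, 2.67 and 1.38 CPM. Deletion 4 exceeded all wild types but the first, so the groups overlapped, with a log2 fold change of -0.74 (SE 0.34, edgeR adjusted p = 0.896). Hoxa4 measured 3.17, 2.16, 0.610 and 0.871 CPM in wild type and 1.11, 1.04, 0.473, 0.783 and 0.212 CPM in the deletion. Its log2 fold change was -1.23 (SE 0.59, edgeR adjusted p = 0.896). Wild types 1 and 2 were the high ones, and wild types 3 and 4 lay among the deletion values.

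Hoxb2, a partner of Hoxa2 in the hindbrain, measured 1.83, 1.24, 0.668 and 0.339 CPM in wild type. In the deletion it measured 0.583, 0.313, 0.223, 0.748 and 0.345 CPM, with a log2 fold change of -1.20 (SE 0.55, edgeR adjusted p = 0.896). Here too the excess was in wild types 1 and 2. Hoxc4 had the largest positive difference. It stood at 0.778, 0.397, 0.290 and 0.484 CPM in wild type and at 0.905, 1.95, 0.751, 0.783 and 0.478 CPM in the deletion. Its log2 fold change was 0.99 (SE 0.50, edgeR adjusted p = 0.896), and 0.58 (SE 0.45) without deletion 2, its highest library.

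Hoxb4, an early trunk and blood stem cell gene, measured 2.92, 2.11, 1.42 and 0.992 CPM in wild type. It measured 1.71, 1.53, 1.11, 1.57 and 0.770 CPM in the deletion. The log2 fold change of -0.47 had an SE of 0.39. Hoxa5, Hoxb5, Hoxc5, Hoxd3 and Hoxd8 had log2 fold changes between -0.65 and 0.43, with edgeR adjusted p from 0.947 to 1.00. Without deletion 2, 0 of 12 members and 0% of 16278 genes were called, 868 genes (5.33%) and 0 members had an unadjusted p below 0.05, 10 members lay below 0, and the median was -0.38. The log2 fold changes were then -0.69 for Hoxa3, -1.39 for Hoxa4, -1.10 for Hoxb2 and -0.52 for Hoxb4. Of the 12 members, Hoxc5 and Hoxd8 changed sign, to -0.31 and -0.34.

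**Figure D3:**
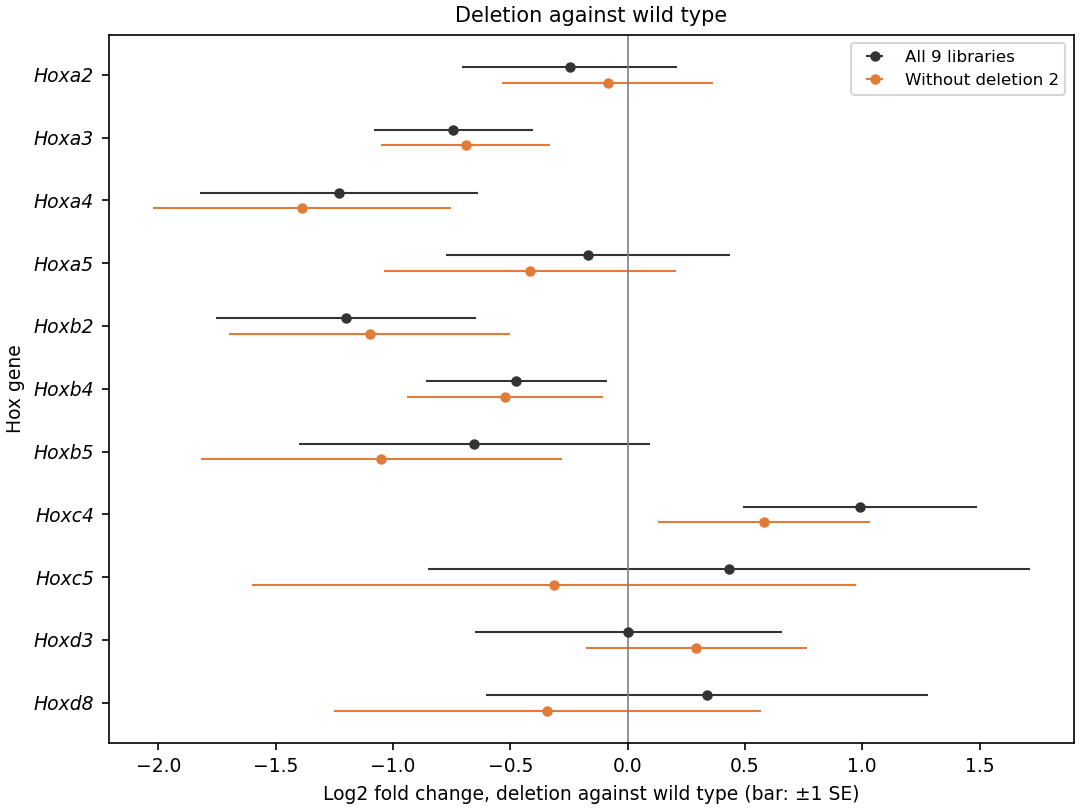
Log2 fold change of deletion against wild type (x axis, bars ±1 SE) for 11 of the 12 Hox genes past the filter, over all 9 libraries (dark) and without deletion 2 (orange). The values run from -1.23 (Hoxa4) to 0.99 (Hoxc4) over all libraries, and none passed the test.

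Since numbers A and B each hold 2 libraries of both genotypes, the genotype difference was also read within each. Within A it was -1.18 for Hoxa3, -1.29 for Hoxa4 and -1.74 for Hoxb2 on the log2 scale, and within B it was -0.11, -0.25 and -0.07. Hoxc4 had 1.29 within A and 0.97 within B. No member was called within either number, where edgeR called 6 of 16267 genes (0.0369%) within B and none within A. With number as a 3-level term beside genotype, edgeR called 0 of 12 members and 0 of 16522 genes. The members then had a median of -0.11, with 8 below 0. Hoxa4 had -0.79 (SE 0.40) and Hoxc4 1.13 (SE 0.45). At an unadjusted p of 0.05 this fit took 1013 genes and 1 member, Hoxc4. The interaction of genotype and number was called for 2 of 16303 genes (0.0123%) and for 0 of 12 members by edgeR (adjusted p from 0.727 to 0.960), and 1329 genes but no member had an unadjusted p below 0.05.

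Between the numbers, Hoxd8 and Hoxb5 were lower at number B than at number A, while Hoxa3 had a log2 fold change near 0. If the numbers are litters, a single litter stands for each, and the libraries of a number are not replicates of it. The p-values of this contrast then measure the spread between libraries within the numbers. Any other difference between A and B cannot be told apart from the number. With genotype as a term, edgeR called 2 of 12 members, both lower at B, where it called 9.65% of 16522 genes (1594) in either direction and 4.17% (689) as lower. At an unadjusted p of 0.05 it took 4 of the 12 members and 27.2% of genes. Of the 12 members, 10 had values below 0, with a median log2 fold change of -0.78, beside -0.03 over all genes. Without deletion 2 it was 11 of 12, with medians of -1.12 and -0.01. CPM of the numbers did not overlap for 5 of the 12 members (Hoxa4, Hoxa5, Hoxb5, Hoxd3 and Hoxd8), as for 19.5% of genes. Because A has 4 libraries, a member present there alone could pass the filter, so these counts describe the 12 members and support nothing further. Deletion 5 is alone at its number, so it is fitted exactly and adds nothing directly to this contrast. It does enter the low-count filter and the TMM scaling. Without deletion 5, 3 of 12 members were called, Hoxa5 (edgeR adjusted p = 0.0492) beside Hoxb5 and Hoxd8. There edgeR called 9.94% of 16303 genes, 709 of them as lower.

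Hoxd8 (chr2:74704615-74707933, plus strand), a gene of the cluster's middle that is used in trunk tissues, had the largest difference. At number A it stood at 2.501 and 1.54 CPM in wild types 1 and 2 and at 2.37 and 3.80 CPM in deletions 1 and 2. At B it stood at 0.378 and 0.290 CPM in wild types 3 and 4 and at 0.556 and 0.0712 CPM in deletions 3 and 4. Every library of B lay below every library of A, in both genotypes, and deletion 5 had 0.637 CPM. The log2 fold change was -2.92 (SE 0.56, edgeR adjusted p = 0.0182), and without deletion 2 it was -2.70 (SE 0.59, adjusted p = 0.0268), where Hoxd8 was the 1 member called beside 10.5% of genes. The call was lost without wild type 3 (adjusted p = 0.0622) or without wild type 4 (0.0664). In wild type alone the log2 fold change was -2.59 (adjusted p = 0.0724), and in the deletion alone -3.24 (0.212).

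Hoxb5 (chr11:96303336-96306121, plus strand), known for enteric neural crest and lung, was the other member called. At A it measured 3.00 and 1.09 CPM in wild type and 1.15 and 1.57 CPM in the deletion. At B it measured 0.407 and 0.436 CPM in wild type and 0.501 and 0.570 CPM in the deletion. The numbers did not overlap, the 4 libraries of B were close to each other, and deletion 5 had 0.133 CPM. The log2 fold change was -1.80 (SE 0.46, edgeR adjusted p = 0.0412). The call was lost without wild type 1 (adjusted p = 0.0957), wild type 3 (0.135), wild type 4 (0.131), deletion 2 (0.0630), deletion 3 (0.0988) or deletion 4 (0.0738).

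Hoxa5, known for lung and cervical patterning, missed the threshold with a log2 fold change of -1.43 (SE 0.39, edgeR adjusted p = 0.0510). It stood at 6.56 and 4.99 CPM in wild types and at 4.43 and 5.29 CPM in deletions of A. At B it stood at 1.16 and 1.72 CPM in wild types and at 1.502 and 3.85 CPM in deletions, and deletion 5 had 0.982 CPM. Deletion 4 was the high library of B and still lay below all of A. The adjusted p was 0.0223 without deletion 4 and 0.0590 without deletion 2. In wild type alone the log2 fold change was -1.99 (edgeR adjusted p = 0.0483, with 3.48% of genes called there), and in the deletion alone it was -0.87 (adjusted p = 0.439). Hoxa4 had a log2 fold change of -1.32 (SE 0.40, adjusted p = 0.0694), with 1.04 to 3.17 CPM at A and 0.473 to 0.871 CPM at B, and an adjusted p of 0.0689 without deletion 2.

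Hoxc5 had a log2 fold change of -2.24 (SE 1.08, edgeR adjusted p = 0.221). At A it measured 0.778 and 0.223 CPM in wild type and 0.724 and 1.18 CPM in the deletion, and at B 0 and 0.290 CPM in wild type and 0 and 0.285 CPM in the deletion, with 0 in deletion 5. The numbers overlapped through wild type 2, and without deletion 2 the log2 fold change was -1.99. Hoxd3 went the other way, with 0.0348 to 0.463 CPM at A and 0.465 to 0.855 CPM at B and a log2 fold change of 1.08 (SE 0.66, adjusted p = 0.331). Without deletion 2 it was 0.71 (SE 0.51). Hoxa3 had -0.10 (SE 0.37, adjusted p = 0.893), and -0.25 without deletion 2.

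**Figure D4:**
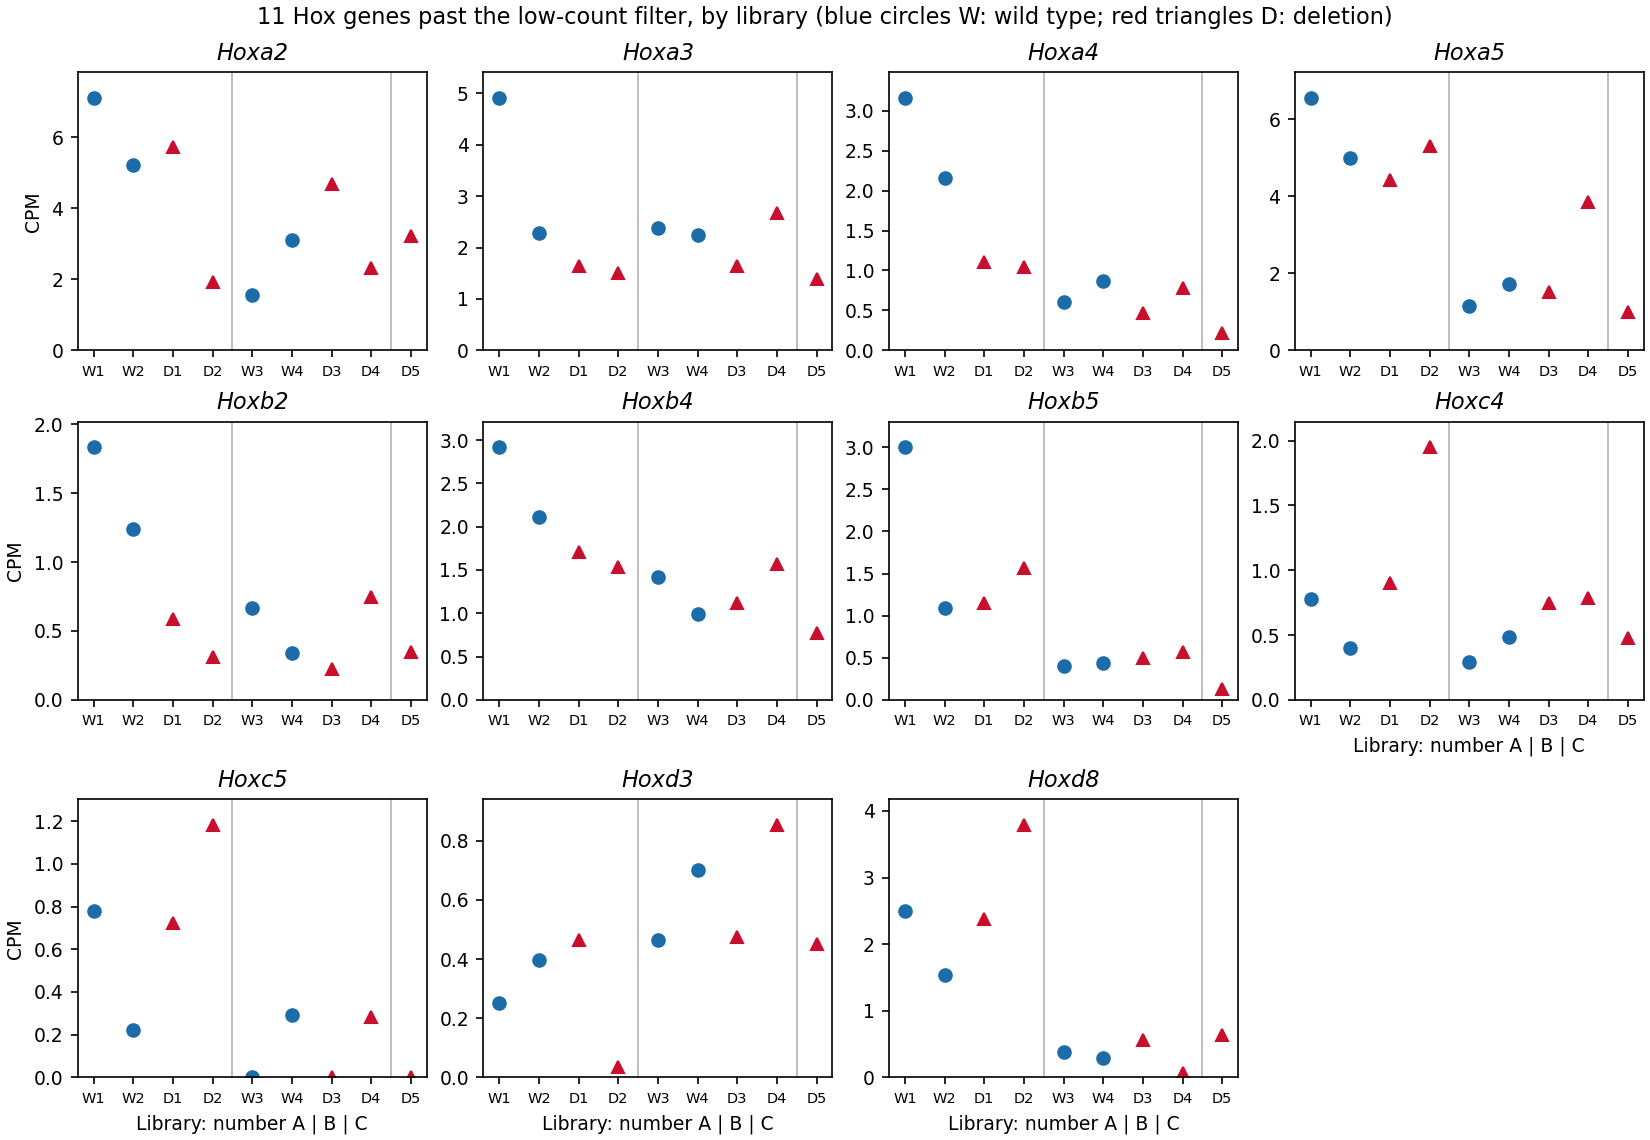
CPM of 11 of the 12 Hox genes past the filter in each library, with wild type as blue circles and deletion as red triangles, and grey lines between the numbers A, B and C. Hoxd8, Hoxb5, Hoxa5 and Hoxa4 have every library of B below every library of A, and Hoxa3 does not.

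Among members under the filter, Hoxd9, the neighbour of Hoxd8, had 12 and 37 counts in wild types 1 and 2, 15 and 2 in deletions 1 and 2, and 0 in the other 5 libraries. Without a filter edgeR called Hoxd9 lower at B (adjusted p = 0.00507), with Hoxa5, Hoxb5 and Hoxd8. These were 4 of 31 members tested, beside 1904 of 28085 genes (6.78%), 887 of them lower. DESeq2 called 7 members, Hoxa4, Hoxa5, Hoxa7, Hoxb5, Hoxb6, Hoxd8 and Hoxd9, all lower, where it called 11.2% of genes in either direction and 5.71% as lower. With C read as B, edgeR called Hoxa5, Hoxb5 and Hoxd8 lower beside 4.49% of genes. Without deletions 2 and 5, a choice made after seeing the data, it called Hoxd8 and Hoxd9 of 13 members tested, beside 10.4% of genes. Hoxd9 passed the filter there only through libraries of A, where it is high, so its call describes it and supports nothing further. Of the members called by DESeq2, Hoxa7 and Hoxb6 had at most 1 count in any library of A other than deletion 2. Paralogues 4 and 5 took 27.5% to 31.7% of the summed Hox level per kb in the libraries of A other than deletion 2 and 15.8% to 26.9% at B. Paralogues 6 to 9 took 3.92% to 6.49% and 0.50% to 1.83%.

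**Figure D5:**
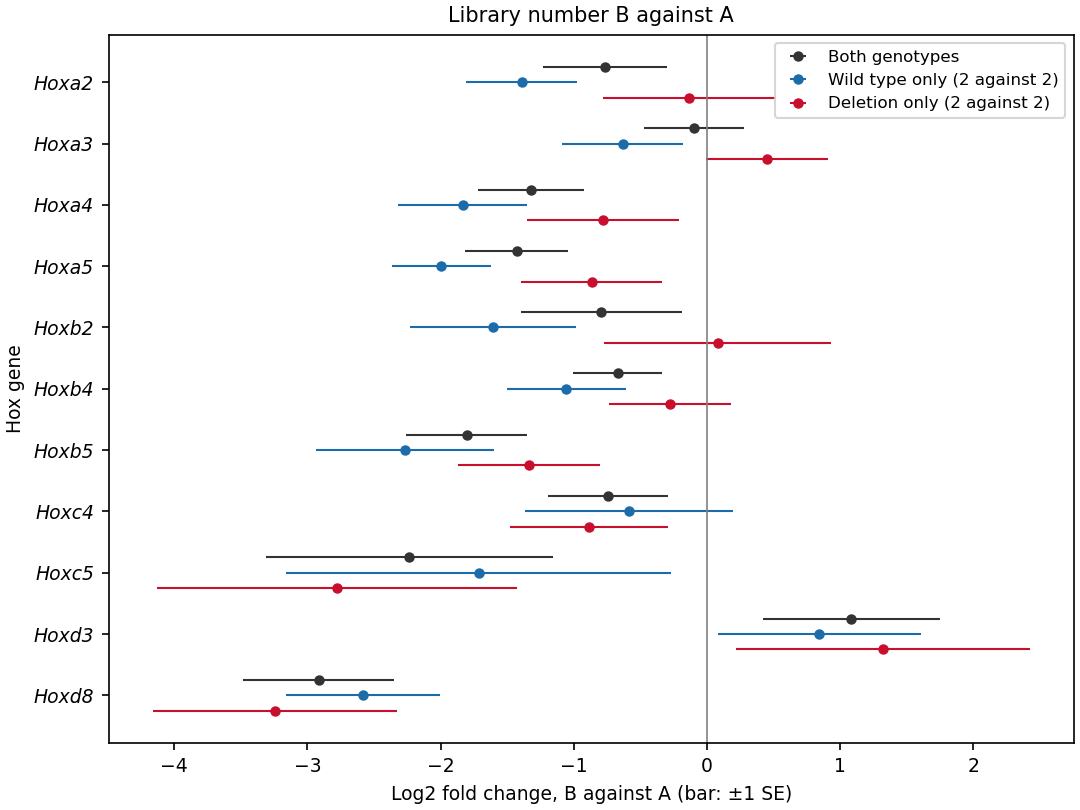
Log2 fold change of number B against number A (x axis, bars ±1 SE) for 11 of the 12 Hox genes past the filter, with both genotypes and genotype as a term (dark), in wild type only (blue) and in the deletion only (red). Hoxd8 (-2.92) and Hoxb5 (-1.80) were called with both genotypes, and Hoxa3 lies at -0.63 in wild type and 0.45 in the deletion.

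The proteins that work with Hox genes were read from the same fit. In the genotype comparison 0 of the 9 cofactor, 15 retinoic acid and Cdx, 24 Polycomb and trithorax and 3 hindbrain genes tested were called. Between the numbers edgeR called 5.48% of all genes as higher and 4.17% as lower at B, and the counts of the lists are to be read against these shares. Of 9 cofactors 2 were higher at B, Pbx3 (74.4 ± 9.35 CPM at A and 112 ± 14.5 CPM at B, SD, n = 4 each, edgeR adjusted p = 0.0110) and Pknox2 (39.4 ± 3.90 and 53.7 ± 3.06 CPM, adjusted p = 0.0177). Of 15 retinoic acid and Cdx genes, Crabp2, a carrier that brings retinoic acid to its receptors, was lower (log2 fold change -0.73, SE 0.15, adjusted p = 0.0221). Without deletion 2, Rdh10, an enzyme of retinoic acid synthesis, was also lower (-0.79, SE 0.16, edgeR adjusted p = 0.0229). Cdx2 and Cdx4, activators of trunk Hox genes, were at 0 in every library.

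Of 24 Polycomb and trithorax genes, 6 were higher and 2 lower at B, beside 5.48% and 4.17% of all genes, and 5 and 2 without deletion 2. Among those higher were Cbx2, a Polycomb subunit (0.80 on the log2 scale, SE 0.12, edgeR adjusted p = 0.00842), Jarid2 (0.53, adjusted p = 0.00948) and Ezh2, the methyltransferase of Polycomb complex 2 (0.57, adjusted p = 0.0189). Those lower were Bmi1 (-0.46, adjusted p = 0.0334) and Ezh1, the paralogue of Ezh2 (-0.64, adjusted p = 0.0401). The median was 0.17 over this list, 0.20 over the cofactors and -0.18 over the retinoic acid and Cdx genes, beside -0.03 over all genes.

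Markers of several cell types also differed between the numbers, and their part in the Hox values was not tested. Beside 4.17% of all genes lower and 5.48% higher, macrophage markers were lower at B for 3 of 5 tested (Cd68, Adgre1 and C1qa), with summed levels of 92.2 to 182 CPM at A and 35.6 to 71.9 CPM at B. Neural crest markers were higher for 3 of 7 tested (Hand1, Sox9 and Twist1), with 160 to 288 CPM at A and 361 to 432 CPM at B. Of 4 cartilage markers Col9a1, Sox9 and Col2a1 were higher and Acan lower, with sums of 227 to 514 and 751 to 824 CPM. Ckm was lower among 5 skeletal muscle markers (45.5 to 219 and 15.4 to 41.5 CPM, Pax7 at 0), and Msln among 8 epicardial markers (486 to 1096 and 742 to 843 CPM). None of the 18 neuron and Schwann cell, 1 neural tube, 5 foregut and lung, 7 smooth muscle, 7 heart muscle, 6 limb and body wall and 6 erythroid markers tested was called by edgeR. Without deletion 2, Nefl, Nefm and Prph were lower and Tubb3 higher at B among 17 neuron and Schwann cell markers, with sums of 97.7 to 148 CPM at A and 85.0 to 115 CPM at B. Also without deletion 2, the erythroid markers Hba-a1 and Hbb-bt (2 of 6), Csf1r (a macrophage marker) and Wt1 (an epicardial marker) were lower at B, and Twist1 and Acan were no longer called. In the genotype comparison 0 markers of these lists were called.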

How the data were processed

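Per the labels' protocols, a low-input SMART-Seq kit made the libraries from column-purified RNA (RNeasy). The genome mm10 and the tools HTSeq 0.6.0, STAR 2.5.0c, DESeq2 and Picard are named in the submitters' processing notes. The gene annotation, the strand setting and the mode of counting were not given in the sources used here. The authors deposited whole-number read counts per gene symbol for each library, with no normalization. The 5 rows naming no gene (20.6% to 23.5% of reads) were left out.

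The main test was the edgeR 4.0.16 (R 4.3.3) quasi-likelihood test (robust fit, TMM, filterByExpr with a minimum count of 10, two-sided, Benjamini-Hochberg adjusted p of 0.05 over all genes tested). The genotype fit had no other term, the fit of library numbers had genotype and a 3-level number, and the interaction left out deletion 5. CPM used TMM-scaled totals, and lengths came from GENCODE M21 exons. DESeq2 1.42.0 was an alternative. On simulated counts the genotype fit recovered 8% of 1.5-fold and 56% of 2-fold changes, and the number fit 4% and 36%. A member that was not called is therefore not shown to be unchanged. Every pair of libraries differed by more than sampling noise.

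The members, gene lists and tests were chosen with earlier results of these data known. Values were printed for each library for members called in either comparison, the 2 highest of each cluster per kb, and the 3 with the smallest p or the largest fold change in each comparison. Deviations of same-numbered replicates from their group means correlated at 0.242, 0.137, 0.227 and 0.176. Over all pairs of a wild type and a deletion library with the same library number the mean was 0.193, and with different numbers -0.196. The correlations therefore do not show that replicates are paired within a library number. A fit with replicate number as a block was run only as an alternative. A member past the filter and a few listed genes stay in the counts and shares but are not reported here by name.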

Additional observations from a re-analysis of the deposited data

Results flagged for a closer look

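In 42 groups of 4 or 5 libraries in which a Hox member reached 10 counts, 14 had a library far from the others by Dixon's test. The nominal rate of the test is about 1 in 20, and over all genes it flagged 10.5% of groups. In 10 of the 25 deletion groups of Hox members deletion 2 was the high one, beside 6.83% of the deletion groups of all genes. The groups of Hoxa6, Hoxa7, Hoxb6, Hoxb7, Hoxb8, Hoxb9, Hoxc6 and Hoxc8 reached 10 counts in deletion 2 alone. They entered the test only through that library, so their flags describe it and support nothing further. The values of deletion 2 in the 10 groups were 1.08 CPM for Hoxa6, 16.9 CPM for Hoxa7, 9.71 CPM for Hoxa9, 4.84 CPM for Hoxb6 and 5.68 CPM for Hoxb7. They were 1.11 CPM for Hoxb8, 2.09 CPM for Hoxb9, 1.53 CPM for Hoxc6, 2.26 CPM for Hoxc8 and 5.26 CPM for Hoxd1. The next highest deletion library had at most 0.605 CPM, for Hoxd1 in deletion 4.

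Hoxa3 was high in wild type 1, at 4.92 CPM with the nearest at 2.38 CPM, and in deletion 4, at 2.67 CPM with the nearest at 1.65 CPM. Hoxa10 had 0.417 CPM in wild type 1 and 0 in the other wild types. Hoxd9 had 0.302 CPM in deletion 1, with the nearest deletion library at 0.0696 CPM.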

How the results depend on the processing

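In the genotype comparison 0 members were called under every alternative run. The count of genes called was 38 with DESeq2, 6 within B and 0 to 1 leaving out 1 library (1 without wild type 3). With replicate number as a block, 0 genes and 0 members were called in the genotype comparison, and Hoxa5 had 0.25. The block holds library number and was not fitted to the number contrast. Between the numbers, genes called were 3141 with DESeq2, 585 in wild type alone, 0 in the deletion alone (2755 at an unadjusted p of 0.05) and 346 to 1717 leaving out 1 library; 346, 391, 420, 784 and 982 were without wild type 3, wild type 4, deletion 3, deletion 4 and wild type 1. Members called were 4 of 31 without a filter (beside 6.78% of genes) and 7 of 31 with DESeq2. They were 1 of 13 in wild type alone, 0 of 14 in the deletion alone and 0 to 3 leaving out 1 library. The interaction was called for 10 genes with C read as B and 0 without deletions 2 and 5 (chosen after seeing the data). Reading C as B is the same fit as A against all other libraries.

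Of the log2 fold changes of the members named for their values, 172 of 194 alternative values in the genotype comparison and 138 of 164 between the numbers kept their direction and their side of the threshold. In the genotype comparison the sign changed within B for Hoxa2 (0.58), Hoxa5 (0.88), Hoxb4 (0.15), Hoxb5 (0.34), Hoxc5 (-0.15) and Hoxd8 (-0.050). With deletion 5 added to B it changed for Hoxa2 (0.54), Hoxa5 (0.54) and Hoxc5 (-0.75). Hoxa5 also changed with number as a 3-level factor (0.30), with C read as B (0.17), and with deletions 2 and 5 left out (0.37, chosen after seeing the data), where Hoxa2 had 0.31. Leaving out 1 library gave ranges that cross 0 for Hoxa2 (-0.51 to 0.12), Hoxa5 (-0.45 to 0.29), Hoxb5 (-1.05 to 0.28), Hoxc5 (-0.31 to 1.32) and Hoxd8 (-0.34 to 1.01). Between the numbers, Hoxa3 had 0.45 and Hoxb2 0.079 in the deletion alone. Leaving out 1 library gave -0.35 to 0.27 for Hoxa3. The causes were not tested. The members under the filter had counts too low to test in most libraries, and the part of sequencing depth in this was not tested.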

Other observations

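The Hox clusters also hold genes without a homeobox, many of them transcribed from the opposite strand. Of 46 such genes in the count files, 16 had a count in some library and 9 passed the filter, and edgeR called 0 of the 9 in the genotype comparison and 0 between the numbers. The microRNA genes Mir10a, Mir10b, Mir196b, Mir196a-1, Mir196a-2 and Mir615 and the long RNA Hotair were at 0 in every library. Whether these libraries could capture short RNAs was not tested, so a 0 for a microRNA gene is not read as absence of expression. Mir196b also shares exon bases with Hoxa9, and how reads in shared exons were assigned is not given in the sources used here. Hotairm1, a long RNA of the Hoxa cluster, stood at 1.78 and 1.91 CPM in wild types 1 and 2 and at 0.726 and 0.653 CPM in wild types 3 and 4. Its log2 fold change between the numbers, B against A, was -1.04 (SE 0.36, edgeR adjusted p = 0.0971), and that of Hoxaas3, antisense within the Hoxa cluster, was -1.06 (SE 0.33, adjusted p = 0.0725). Haglr, which starts beside Hoxd1 on the opposite strand, had 1.12 (SE 0.43, adjusted p = 0.135). Haglr was at 0.487 CPM in deletion 2, its lowest library, in which Hoxd1 was at its highest.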
